A study of Mus musculus with 30 samples.

Results

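Bone marrow progenitors of the MPP3 type labelled T2 were compared with those labelled T1, both sorted from WTiMOS mice at the age of 3 months. The T2 group and the T1 group had 3 libraries each, so that 6 of the 30 libraries of the series took part, chosen by their labels alone. The whole series has 10 groups of 3 libraries, namely T2 and T1 of WTiMOS MPP3 and WTiMOS MPP4 at 3 and 24 months and of KOiMOS MPP3 at 3 months. For WTiMOS MPP3 its design text names the effect of more Bcl11a within otherwise normal cells as the question. The cells were isolated by flow cytometry and their RNA was amplified with a kit for low input. The labels leave the Bcl11a state of T2 and of T1 unstated, as well as the sort markers, the promoter or Cre line of the mosaic system, the sex and any pooling of mice. They also do not tell whether T2 and T1 share animals or whether replicates are separate mice. The spread behind the p-values below is thus that among these libraries, and it may be technical.

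Multipotent progenitors lie between the stem cell and the committed precursors of blood. MPP3 is the subset that mostly feeds the granulocyte and macrophage lines, while MPP4 leans to the lymphoid side. Bcl11a is a zinc finger repressor that acts with the NuRD complex and other corepressors, is needed for B cell development in the mouse, and is best known for silencing fetal globin genes in human red cells.

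Expression was deposited as TPM, which scales each gene by its length and each library to a fixed total, so the depth is unknown. A gene was tested where at least 3 of the 6 libraries had at least 1 TPM, which left 11723 of 24421 genes. A gene present in 1 group only enters through that group, so its direction is fixed by the filter. Differences are T2 minus T1 of log2(TPM + 1), a scale on which low genes change by less than their ratio. A gene is called higher or lower where its Benjamini-Hochberg adjusted p in limma was below 0.05. By this rule 1682 genes (14.3%) differed, with 983 higher in T2 (8.39%) and 699 lower (5.96%). A difference of at least 2-fold was found in 492 genes (4.2%), of which 197 were higher (1.68%) and 295 lower (2.52%). In 3855 genes (32.9%) the libraries of T2 and T1 did not overlap. The median log2 change of all genes tested was 0.10, and rescaling the libraries by their median ratio, which brought it to 0.0075, turned the balance to 552 higher and 900 lower genes. The count of genes that passed was 933, 993 and 1135 without T1 replicates 1, 2 and 3. It was 2197, 1164 and 1178 without T2 replicates 1, 2 and 3. The filter was applied again in each case, so the genes tested differ. Between 11502 and 11658 genes reached 1 TPM in each library. The correlation of log2 values across genes was 0.975 to 0.977 among T2 libraries, 0.983 to 0.986 among T1 libraries and 0.955 to 0.965 between the groups. These are bulk samples, in which fewer cells of a type and less RNA per cell cannot be told apart. The gene lists below were chosen with earlier results of these data known, so their counts are no independent support. Shares of list members are to be read beside the 8.39% higher and 5.96% lower of all genes.

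Bcl11a was higher in T2. The gene, at chr11:24076564-24173558 of mm10, had 76.3, 85.3 and 73.8 TPM in T2, against 43.8, 48.5 and 43.5 TPM in T1. Every T2 library lay above every T1 library, with a mean of 78.5 ± 6.06 TPM in T2 libraries and 45.2 ± 2.79 TPM in T1 libraries (SD, n = 3 each). On the log2(TPM + 1) scale this was 1.72-fold, a log2 change of 0.78 ± 0.12 SE (adjusted p = 0.000926). The log2 change of Bcl11a ran between 0.68 and 0.83 over the alternatives tried and passed in each of them. Of 36 genes tested for Bcl11a and its known corepressor partners, 2 were higher in T2 (5.56%), 0 were lower (0%) and 34 did not pass. The background over all genes was 8.39% higher and 5.96% lower. The median of the 36 log2 changes was 0.07 (-0.02 after rescaling, 0.03 to 0.13 with 1 library left out). Besides Bcl11a, the higher gene was Rbbp7, a histone-binding subunit of NuRD. Rbbp7 had 785, 811 and 816 TPM in T2, against 651, 575 and 666 TPM in T1, a log2 change of 0.35 ± 0.07 SE (adjusted p = 0.00334). The call on Rbbp7 was lost without trended and robust options (adjusted p = 0.112). Hdac1, a deacetylase of the same complex, had 451, 473 and 525 TPM in T2, against 462, 455 and 465 TPM in T1, and its libraries overlapped (adjusted p = 0.581).

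The cells carried the surface genes of early progenitors. Kit, the receptor for stem cell factor, had 144, 170.1 and 153 TPM in T2, against 150.05, 165 and 147 TPM in T1. Cd48, a surface protein of MPP3 that stem cells lack, had 306, 320.1 and 292 TPM in T2, against 319.7, 319.8 and 274 TPM in T1. Both genes had overlapping libraries (adjusted p = 0.945 for Kit and adjusted p = 0.959 for Cd48). Cd34, a sialomucin of progenitors, had 1264, 1439 and 1448 TPM in T2, against 752, 723 and 749.6 TPM in T1. Flt3, a cytokine receptor of lymphoid-primed progenitors, had 133, 125 and 181 TPM in T2, against 68.5, 91.1 and 103 TPM in T1. Fcgr3, the Fc receptor CD16, had 63.7, 60.1 and 31.9 TPM in T2, against 12.8, 11.4 and 12.1 TPM in T1. For Cd34, Flt3 and Fcgr3 all T2 libraries were above all T1 libraries, with log2 changes of 0.90 ± 0.06, 0.74 ± 0.16 and 1.95 ± 0.23 SE (adjusted p = 1.12e-06, 0.009 and 0.000131). The call on Flt3 was lost with no filter on low values (adjusted p = 0.0767) and without trended and robust options (adjusted p = 0.093). Ly6a, which encodes Sca-1, had 85.5, 102 and 85.2 TPM in T2, against 149, 135 and 122 TPM in T1. Il7r, the interleukin 7 receptor chain, had 0.678, 2.95 and 3.6 TPM in T2, against 14.1, 13.2 and 14.6 TPM in T1. Ly6a and Il7r were lower in every T2 library, with log2 changes of -0.57 ± 0.11 and -2.26 ± 0.34 SE (adjusted p = 0.0047 and 0.000771). The call on Ly6a was lost without trended and robust options (adjusted p = 0.0577). Of the 13 genes of this set, 7 were higher in T2 (53.8%), 3 were lower (23.1%) and 3 did not pass. The shares over all genes were 8.39% higher and 5.96% lower.

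Marker genes of 15 cell types were summed in each library as a check of the label. MPP markers summed to 2449.8 to 2723 TPM in T2 libraries and 1733 to 1846 TPM in T1 libraries (4 higher and 1 lower of 8 tested). Monocyte markers summed to 136 to 249 TPM in T2 libraries and 1716 to 1853 TPM in T1 libraries (0 higher and 4 lower of 4 tested). B cell markers summed to 16.7 to 30.5 TPM in T2 libraries and 169.6 to 203 TPM in T1 libraries (0 higher and 3 lower of 3 tested), with Ms4a1 at 0 in all 6 libraries. In both cell types the T2 sums lay far below the T1 sums. Dendritic cell markers summed to 0.041 to 2.12 TPM in T2 libraries and 29.5 to 33.8 TPM in T1 libraries (0 higher and 1 lower of 1 tested). The marker tested, Cd209a, reached 1 TPM in T1 libraries only. It entered the test through T1 and could only be lower, so its call is no independent support. Macrophage markers summed to 96.8 to 124 TPM in T2 libraries and 37.7 to 60.2 TPM in T1 libraries (4 higher and 1 lower of 6 tested), with sums above T1. Megakaryocyte markers summed to 99.1 to 106 TPM in T2 libraries and 33.1 to 44.2 TPM in T1 libraries (1 higher and 0 lower of 4 tested). Endothelial markers summed to 22 to 36.3 TPM in T2 libraries and 7.43 to 10.1 TPM in T1 libraries (1 higher and 0 lower of 2 tested). Mast cell and basophil markers summed to 35.9 to 198 TPM in T2 libraries and 18.6 to 31.2 TPM in T1 libraries (1 higher and 0 lower of 5 tested). The call on the higher one, Ms4a2, was lost without T2 replicate 3 (adjusted p = 0.131), T1 replicate 1 (adjusted p = 0.127) or T1 replicate 2 (adjusted p = 0.066). It was also lost with no filter on low values (adjusted p = 0.128) and without trended and robust options (adjusted p = 0.112). Prss34, which did not pass, had 2.21, 89.2 and 49.8 TPM in T2 and 0 in T1. Those of mature neutrophils summed to 13.2 to 433 TPM in T2 libraries and 15.6 to 151 TPM in T1 libraries, a wide range within each group, and none of 4 passed. Red cell markers summed to 7.15 to 19.4 TPM in T2 libraries and 3.12 to 7.58 TPM in T1 libraries (0 higher and 0 lower of 4 tested), and the groups overlapped. T cell markers summed to 1.67 to 3.64 TPM in T2 libraries and 10.9 to 15.2 TPM in T1 libraries (0 higher and 1 lower of 1 tested). Plasmacytoid dendritic cell markers summed to 135 to 185 TPM in T2 libraries and 191 to 199 TPM in T1 libraries (0 higher and 2 lower of 3 tested). NK cell markers and plasma cell markers stayed at or below 5.32 and 5.18 TPM in T2, and at or below 5.49 and 6.14 TPM in T1, and none passed. Stromal markers stayed at or below 1.29 TPM in T2 and 0.856 TPM in T1, with Lepr and Pdgfra at 0 throughout. Cd8a of T cells and Siglech of plasmacytoid dendritic cells were also at 0 throughout. Several sums rested largely on a single gene. The largest part came from Cd34 for MPP, Ly6c2 for monocytes, Itga2b for megakaryocytes and Emcn for endothelial cells. In T1 the dendritic cell sum was nearly all Cd209a. Such sums do not show that the other markers of a type moved with them, and Kit and Cd48 did not pass. The part that other cell types have in the results below was not tested.

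**Figure D1:**
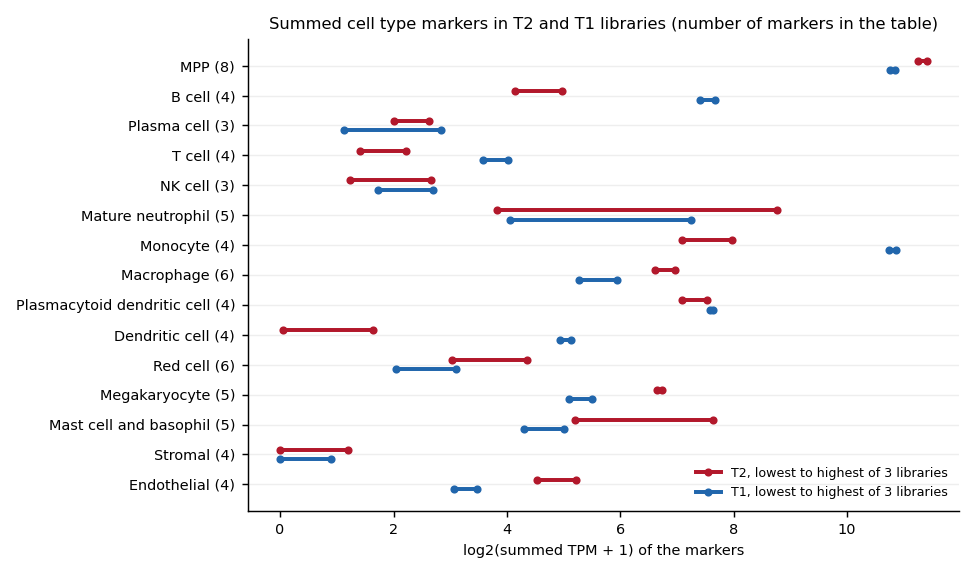
Summed TPM of cell type markers, as log2(summed TPM + 1) on the horizontal axis, with a bar from the lowest to the highest of 3 T2 libraries (red, upper) and of 3 T1 libraries (blue, lower). The monocyte sums of 136 to 249 TPM in T2 and 1716 to 1853 TPM in T1 lie apart, as do the B cell sums.

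The genes of largest change were picked among called genes whose T2 and T1 libraries did not overlap. The lack of overlap in them is thus a condition of the choice. Among the 15 higher genes of largest change, Car1, Klf1, Epor and Atp1b2 belong to the erythroid list described further on. Car1, carbonic anhydrase 1 of red cells, had 140.3, 27 and 27.9 TPM in T2, against 0.757, 6.29 and 1.12 TPM in T1. T2 replicate 1 stood above the other T2 libraries, and T1 replicate 2 above the other T1 libraries. Car1 had a log2 change of 4.01 ± 0.90 SE (adjusted p = 0.0457), and the call was lost without T2 replicate 3 (adjusted p = 0.0739), without T1 replicate 1 (adjusted p = 0.195) and without T1 replicate 3 (adjusted p = 0.173). It was also lost with a filter of at least 5 TPM (adjusted p = 0.0523), with rescaling (adjusted p = 0.0614), with the replicate block (adjusted p = 0.145) and with the GC and length trend removed (adjusted p = 0.0627). Ctse, the aspartic protease cathepsin E, had 216, 214 and 221 TPM in T2, against 17, 22.6 and 17.6 TPM in T1. Its 3 T2 libraries agreed closely and lay far above T1, with a log2 change of 3.45 ± 0.13 SE (adjusted p = 8.52e-09). Fcna, a ficolin of innate immunity, had 33.8, 19.4 and 22 TPM in T2, against 3.71, 1.37 and 2.39 TPM in T1. Fgf3, a fibroblast growth factor, had 35.2, 29.8 and 41.3 TPM in T2, against 3.92, 4.04 and 5.59 TPM in T1. Epor, the erythropoietin receptor, had 9.84, 6.12 and 8.93 TPM in T2, against 0.395, 1.1 and 0.534 TPM in T1. Fcna, Fgf3 and Epor had no overlap, with log2 changes of 2.92 ± 0.29, 2.72 ± 0.21 and 2.47 ± 0.30 SE (adjusted p = 2.77e-05, 2.57e-06 and 0.000143). Pglyrp1, a peptidoglycan recognition protein of granules, had 57.1, 74.8 and 55 TPM in T2, against 9.75, 17.3 and 10.9 TPM in T1, a log2 change of 2.24 ± 0.21 SE (adjusted p = 1.67e-05). The other 9 of the 15 higher genes were Cldn15, Atp1b2, Klf1, Spsb4, Nr0b2, Wdfy1, Tubb6, Gpx3 and Emcn, with log2 changes between 1.96 and 2.56. The call on Klf1, a red cell factor, was lost without T2 replicate 1 (adjusted p = 0.0693), without T2 replicate 3 (adjusted p = 0.115), without T1 replicate 1 (adjusted p = 0.185) and without T1 replicate 3 (adjusted p = 0.148). It was also lost with no filter on low values (adjusted p = 0.1), with a filter of at least 5 TPM (adjusted p = 0.0504), with rescaling (adjusted p = 0.0535), with the replicate block (adjusted p = 0.184), without trended and robust options (adjusted p = 0.0973) and with the GC and length trend removed (adjusted p = 0.0554).

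The 15 lower genes of largest change, also picked among genes without overlap, included genes known from monocytes, dendritic cells and granulocytes. Cd209a, a C-type lectin of dendritic cells, had 0.0759, 0 and 0 TPM in T2, against 29.5, 33 and 31.8 TPM in T1. Cd177, a neutrophil surface protein, had 0, 5.52 and 0.161 TPM in T2, against 63.2, 66.2 and 45.8 TPM in T1. T2 libraries of Cd209a were at or near 0, and those of Cd177 were too, apart from replicate 2. They had log2 changes of -4.98 ± 0.23 and -4.90 ± 0.72 SE (adjusted p = 5.55e-08 and 0.00666), and that of Cd177 did not pass with a pseudocount of 0.1 (adjusted p = 0.0701). Pld4, an endolysosomal exonuclease of plasmacytoid dendritic cells and monocytes, had 8.84, 11.3 and 8.44 TPM in T2, against 290.3, 272 and 268 TPM in T1. Ms4a4c, a membrane protein of myeloid cells, had 4.14, 5.96 and 3.62 TPM in T2, against 137, 131 and 110.3 TPM in T1. Ly86, the partner of the receptor RP105, had 9.5, 7.54 and 5.13 TPM in T2, against 138, 121 and 109.6 TPM in T1. All T2 libraries lay below all T1 libraries, with log2 changes of -4.73 ± 0.14, -4.53 ± 0.19 and -3.91 ± 0.20 SE (adjusted p = 9.18e-10, 2.06e-08 and 1.16e-07). Ly6c2, the monocyte antigen Ly6C, has a similar neighbour that may share its reads. Ly6c2 had 187, 204 and 89 TPM in T2, against 1532, 1539.7 and 1412 TPM in T1, a log2 change of -3.30 ± 0.36 SE (adjusted p = 0.00775). Dmkn, dermokine, known from skin, had 4.69, 4.87 and 4.53 TPM in T2, against 97.2, 103 and 116 TPM in T1, a log2 change of -4.22 ± 0.16 SE (adjusted p = 8.52e-09). The paralogs Mrgpra2a and Mrgpra2b, whose similar sequences leave the split of reads uncertain, had log2 changes of -3.66 ± 0.25 and -3.68 ± 0.21 SE (adjusted p = 1.04e-06 and 2.51e-07). The other 6 were Cd300lb, Rnd3, Siglece, Tmem178, Tifab and Cox6a2, with log2 changes between -4.22 and -3.23.

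**Figure D2:**
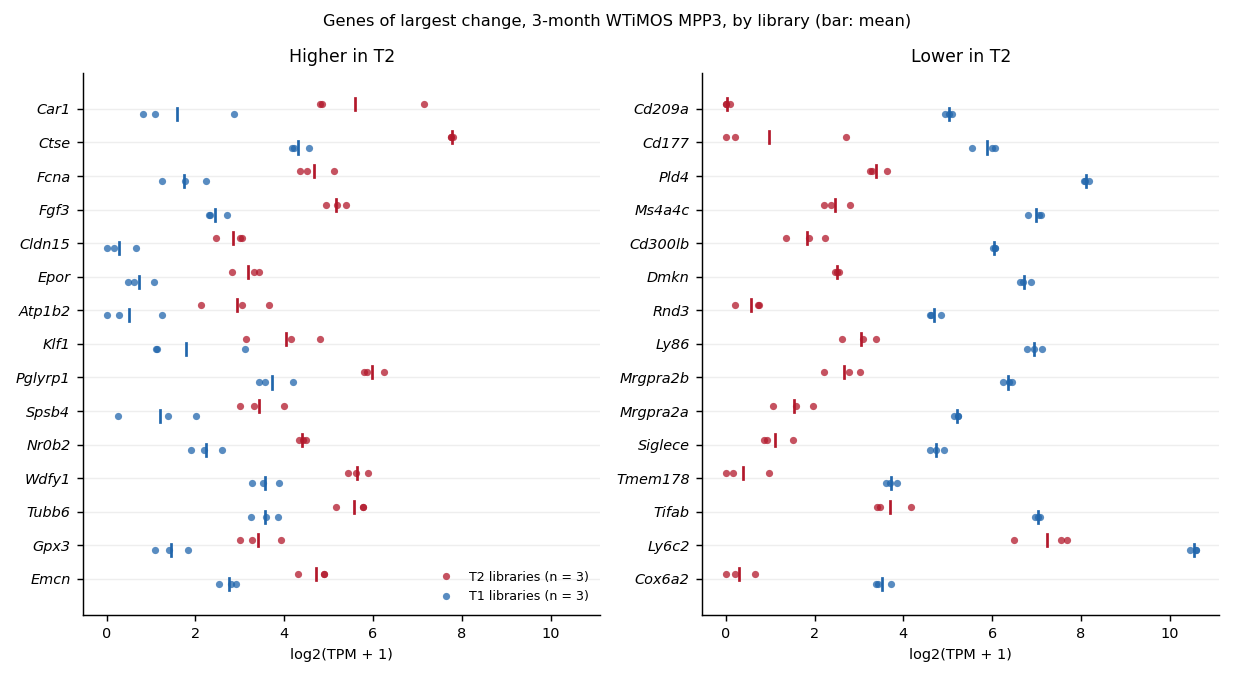
The 15 higher (left) and 15 lower (right) genes of largest log2 change, with 3 T2 libraries (red) and 3 T1 libraries (blue) as points and the mean of log2 values as a bar, on a horizontal axis of log2(TPM + 1). Only genes without overlap of libraries were eligible, so the points of the groups do not cross within a gene by choice. Car1 spreads widest among the T2 points of higher genes, between 27 and 140.3 TPM.

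To show what lies upstream of the genes that differed most, promoters were read from RefSeq (build GRCm38.p6, 300 bases around each start). They are those of the 2 higher and 2 lower genes of largest change found there, since Car1 and Ctse were not matched and 24 of the 30 genes were. Capitals mark TGACCA, the site that human BCL11A is known to bind, AGATAA, a site of GATA factors, and GAGGAAG, a site of PU.1, each on either strand. In Fcna a pair of neighbouring GAGGAAG copies shares 1 base. The window of Fcna is chr2:25627925-25628224, minus strand, that of Fgf3 chr7:144838362-144838661, plus strand, that of Cd209a chr8:3748935-3749234, minus strand and that of Cd177 chr7:24760262-24760561, minus strand.
Fcna: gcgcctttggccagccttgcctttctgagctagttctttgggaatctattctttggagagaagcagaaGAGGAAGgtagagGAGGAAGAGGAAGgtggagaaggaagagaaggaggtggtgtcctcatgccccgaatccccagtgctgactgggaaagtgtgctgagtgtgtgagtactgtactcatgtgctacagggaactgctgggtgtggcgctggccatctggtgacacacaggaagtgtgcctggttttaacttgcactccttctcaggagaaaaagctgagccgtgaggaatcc
Fgf3: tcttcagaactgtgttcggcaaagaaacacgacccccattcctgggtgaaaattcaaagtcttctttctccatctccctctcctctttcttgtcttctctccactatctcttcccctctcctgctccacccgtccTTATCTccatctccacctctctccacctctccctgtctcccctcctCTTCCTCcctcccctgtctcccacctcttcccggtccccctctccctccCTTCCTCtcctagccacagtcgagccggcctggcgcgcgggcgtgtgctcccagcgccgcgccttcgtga
Cd209a: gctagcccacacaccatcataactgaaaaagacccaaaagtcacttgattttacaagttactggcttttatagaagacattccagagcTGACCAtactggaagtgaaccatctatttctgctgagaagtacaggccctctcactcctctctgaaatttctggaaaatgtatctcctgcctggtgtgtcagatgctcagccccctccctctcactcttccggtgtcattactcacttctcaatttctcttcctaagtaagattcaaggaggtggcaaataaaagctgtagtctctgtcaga
Cd177: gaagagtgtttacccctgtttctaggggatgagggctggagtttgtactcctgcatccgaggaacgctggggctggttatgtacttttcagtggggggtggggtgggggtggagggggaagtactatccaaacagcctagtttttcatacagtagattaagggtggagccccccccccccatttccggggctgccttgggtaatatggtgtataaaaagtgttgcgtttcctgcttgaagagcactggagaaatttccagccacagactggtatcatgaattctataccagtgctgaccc
GAGGAAG occurred 3 times in Fcna and 2 times in Fgf3, which also held AGATAA. Cd209a held TGACCA, and Cd177 held none of the 3 motifs. A promoter was listed for 757 of the 983 higher genes, 511 of the 699 lower genes and 8815 of the 11723 tested. Among those with a promoter, TGACCA was present in 12.4% of higher genes, 13.1% of lower genes and 10.9% of all tested. AGATAA was present in 7.66%, 7.05% and 6.42% of the same sets, and GAGGAAG in 14.8%, 16.4% and 13.9%. Of the 153 genes with a promoter that were higher by at least 2-fold, 14.4% held TGACCA, 14.4% AGATAA and 21.6% GAGGAAG. Of the 211 lower by at least 2-fold, 13.3% held TGACCA, 8.53% AGATAA and 17.5% GAGGAAG. Over all 27025 genes with a promoter in RefSeq the shares were 13.6% for TGACCA, 11.4% for AGATAA and 13.5% for GAGGAAG. These matches describe letters and were not tested.

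Stem cell regulators were higher in T2 in many cases. Of 44 tested, 16 were higher in T2 (36.4%), 4 were lower (9.09%) and 24 did not pass, with a median log2 change of 0.52 against 0.10 over all genes. Lower genes numbered 2 without any 1 of the T1 libraries. Hlf, a factor of the stem cell program, had 40.9, 45.4 and 48.4 TPM in T2, against 20.2, 19.3 and 21.3 TPM in T1. Meis1, a cofactor of Hox proteins, had 248, 277 and 284 TPM in T2, against 139, 161 and 142 TPM in T1. Every T2 library of Hlf and Meis1 lay above every T1 library, with log2 changes of 1.11 ± 0.15 and 0.87 ± 0.09 SE (adjusted p = 0.000307 and 3.8e-05). The endothelial-type surface genes Procr and Esam, also on stem cells, and the factor Gata2 had log2 changes of 1.05 ± 0.20, 1.23 ± 0.17 and 0.92 ± 0.13 SE (adjusted p = 0.00382, 0.000389 and 0.000626). Of Ifitm1 and Ifitm3, neighbouring genes of antiviral membrane proteins, the first was higher and Ifitm3 was lower. Ifitm1 had 517, 494 and 474 TPM in T2, against 308, 343 and 310.3 TPM in T1. Ifitm3 had 648, 622 and 558 TPM in T2, against 959.96, 925 and 827 TPM in T1. These genes had log2 changes of 0.63 ± 0.07 and -0.57 ± 0.07 SE (adjusted p = 7.65e-05 and 0.000235). Lyl1, an abundant bHLH factor, had 293, 326 and 333 TPM in T2, against 349, 313 and 342 TPM in T1 and overlapped (adjusted p = 0.545).

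Of 13 Hox cluster genes tested, 4 were higher in T2 (30.8%), 0 were lower (0%) and 9 did not pass, with a median log2 change of 0.62, and 2 were higher without T1 replicate 2. Hoxa9, which keeps progenitors immature, had 70.03, 64.6 and 74.2 TPM in T2, against 32.1, 33.1 and 34.4 TPM in T1. The groups did not overlap, with a log2 change of 1.05 ± 0.13 SE (adjusted p = 0.000134). Hoxa10 and Hoxa7 had log2 changes of 0.78 ± 0.19 and 0.68 ± 0.18 SE (adjusted p = 0.0143 and 0.0275). The call on Hoxa10 was lost without T1 replicate 2 (adjusted p = 0.0733). That on Hoxa7 was lost without T2 replicate 2 (adjusted p = 0.0921), without T2 replicate 3 (adjusted p = 0.0603), without T1 replicate 2 (adjusted p = 0.128) and without T1 replicate 3 (adjusted p = 0.0754). It was also lost with no filter on low values (adjusted p = 0.0776), with rescaling (adjusted p = 0.0588), in the fit over all 30 libraries (adjusted p = 0.0772) and without trended and robust options (adjusted p = 0.076). Hoxa5 had 0.933, 6.23 and 3.11 TPM in T2, against 1.32, 2.04 and 1.3 TPM in T1, with T2 replicate 2 highest (adjusted p = 0.38).

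Megakaryocyte and platelet genes had 7 of 23 members higher in T2 (30.4%), 1 lower and 15 that did not pass, with a median log2 change of 0.42. Itga2b, the integrin chain CD41, had 70.9, 76.9 and 77.4 TPM in T2, against 23.5, 22.6 and 20.8 TPM in T1. Cd63, a tetraspanin of granules, had 897, 883 and 810.3 TPM in T2, against 310.1, 333 and 301 TPM in T1. The T2 libraries were all above T1, with log2 changes of 1.71 ± 0.13 and 1.45 ± 0.07 SE (adjusted p = 2.71e-06 and 5.55e-08). Pf4, the platelet chemokine, had 10.4, 5.62 and 2.64 TPM in T2, against 3.36, 6.96 and 2.36 TPM in T1, and its libraries overlapped (adjusted p = 0.558).

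Erythroid genes were higher in T2 in many cases. Of 45 tested, 20 were higher in T2 (44.4%), 1 was lower (2.22%) and 24 did not pass, with a median log2 change of 0.75 (0.44 without T2 replicate 1). The summed markers of mature red cells overlapped between the groups, and 0 of 4 tested passed. Car2, carbonic anhydrase 2, had 1636, 1495 and 1559.6 TPM in T2, against 594, 664 and 581 TPM in T1. Muc13, a mucin of early progenitors, had 516, 572 and 621 TPM in T2, against 235, 229 and 270.5 TPM in T1. Atp1b2, a subunit of the sodium pump, had 11.7, 3.34 and 7.26 TPM in T2, against 0, 1.36 and 0.222 TPM in T1. All T2 libraries of Car2, Muc13 and Atp1b2 were above T1, with log2 changes of 1.35 ± 0.06, 1.21 ± 0.09 and 2.43 ± 0.43 SE (adjusted p = 5.55e-08, 1.49e-06 and 0.00239). Alas2, the first enzyme of haem synthesis in red cells, had 0.779, 1.31 and 1.55 TPM in T2, against 1.92, 0.534 and 0.694 TPM in T1, and its libraries overlapped (adjusted p = 0.828). Hbb-b2, a globin gene with near-identical copies that may share its reads, had 14.7, 16.7 and 11 TPM in T2, against 4.17, 3.28 and 2.97 TPM in T1, a log2 change of 1.75 ± 0.24 SE (adjusted p = 0.000358). Hemgn, a nuclear protein of red cell precursors, had 39.9, 47.3 and 46.9 TPM in T2, against 18.5, 15.1 and 19.3 TPM in T1, a log2 change of 1.30 ± 0.16 SE (adjusted p = 0.000178).

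**Figure D3:**
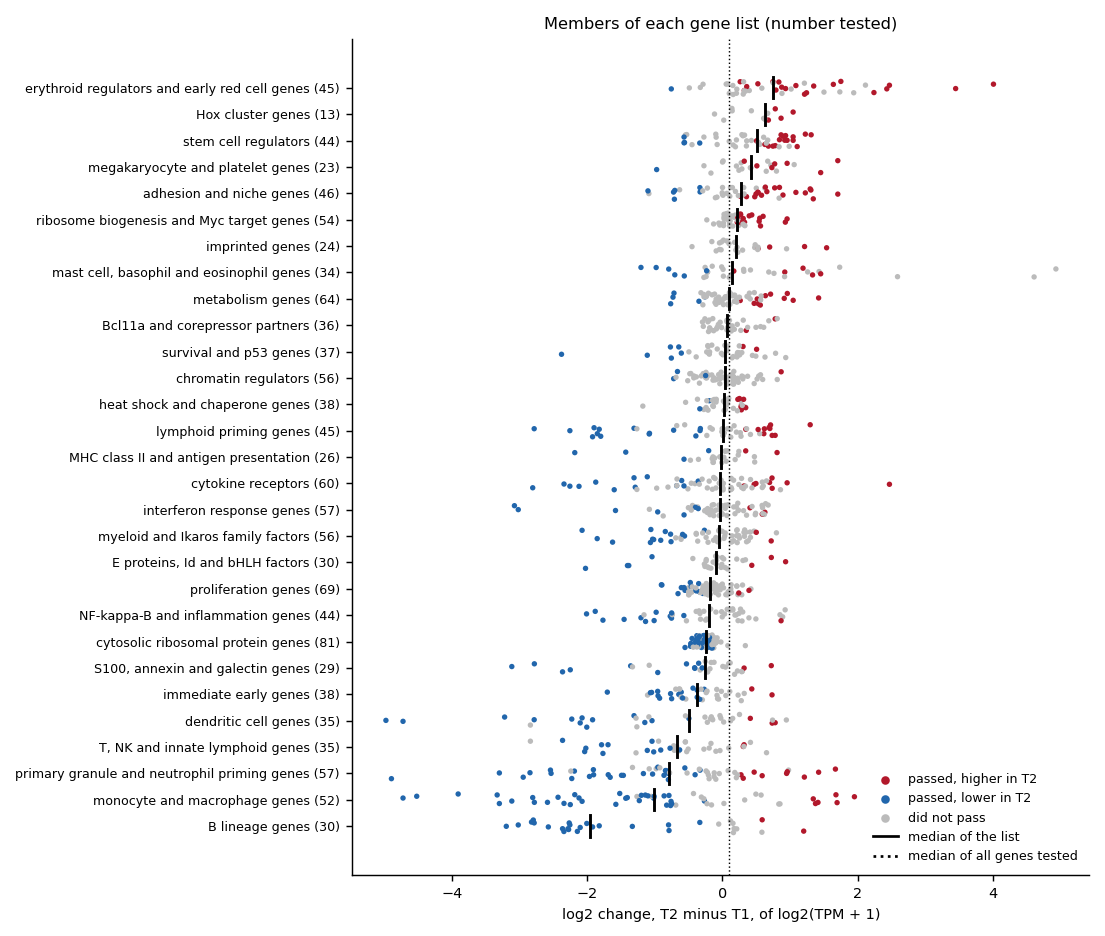
Log2 change, T2 minus T1, of each tested member of 29 gene lists (horizontal axis), a row for each list with its number tested, in red where higher in T2, blue where lower and grey where the gene did not pass. Black bars are list medians, which run between 0.75 for erythroid genes and -1.97 for B lineage genes, beside the dotted median of all genes at 0.10. The lists were chosen with earlier results of these data known.

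Genes of mast cells, basophils and eosinophils went both ways. Of 34 tested, 5 were higher in T2 (14.7%), 6 were lower (17.6%) and 23 did not pass, with a median log2 change of 0.15 (0.05 after rescaling, 0.31 without T2 replicate 1, 0.04 without T2 replicate 2, 0.04 without T2 replicate 3 and 0.28 without T1 replicate 2). Without T2 replicate 1 there were 9 higher, and without T1 replicate 1 or T1 replicate 2 there were 3. By comparison, 8.39% of all genes were higher and 5.96% lower. Cpa3, a mast cell carboxypeptidase that early progenitors also express, had 125, 131 and 149 TPM in T2, against 232, 248 and 223 TPM in T1, a log2 change of -0.80 ± 0.09 SE (adjusted p = 8.99e-05). Slc18a2, the vesicle transporter of monoamines, had 61.7, 68.7 and 90.2 TPM in T2, against 26.6, 30.6 and 37.2 TPM in T1, a log2 change of 1.19 ± 0.17 SE (adjusted p = 0.00051). The chemokine genes Ccl3 and Ccl4, similar in sequence, had log2 changes of -0.98 ± 0.12 and -1.21 ± 0.13 SE (adjusted p = 0.000121 and 4.82e-05). Granule genes of eosinophils and mast cells were high in some T2 libraries only. Prg2, the eosinophil major basic protein, had 3.49, 172 and 362 TPM in T2, against 0.994, 0.902 and 1.59 TPM in T1 (adjusted p = 0.192). Prss34, a protease of mast cells and basophils, had 2.21, 89.2 and 49.8 TPM in T2, against 0, 0 and 0 TPM in T1 (adjusted p = 0.111). T2 replicates 2 and 3 stood apart from T2 replicate 1. Prg2 and Prss34 did not pass, though in both every T2 library lay above every T1 library.

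The granule genes of neutrophils divided by gene. Of 57 tested, 9 were higher in T2 (15.8%), 27 were lower (47.4%) and 21 did not pass, with a median log2 change of -0.79 (-0.51 without T2 replicate 3 and -0.47 without T1 replicate 2). Mpo, the myeloperoxidase of primary granules, had 4459, 4379 and 3876 TPM in T2, against 2183, 2231 and 2156 TPM in T1. Prtn3, proteinase 3 of the same granules, had 936, 907 and 818 TPM in T2, against 1778, 1722 and 1662 TPM in T1. Mpo was higher and Prtn3 lower in every T2 library, with log2 changes of 0.95 ± 0.05 and -0.96 ± 0.06 SE (adjusted p = 1.98e-07 and 4.93e-07). Elane, the elastase, had 1896, 1766 and 1048 TPM in T2, against 3097, 3262 and 2673 TPM in T1. It did not pass, with T2 replicate 3 lowest (adjusted p = 0.094), though the groups did not overlap. Hk3, a hexokinase of myeloid cells, had 107, 120.4 and 122 TPM in T2, against 51.5, 42 and 36.1 TPM in T1, a log2 change of 1.42 ± 0.14 SE (adjusted p = 2.03e-05). Lyz2, lysozyme of myeloid cells, had 576, 649 and 659.7 TPM in T2, against 1065, 1132 and 1144 TPM in T1. Plac8, a gene of myeloid progenitors, had 1138, 996 and 856 TPM in T2, against 2220.2, 2289 and 2183 TPM in T1. Ncf1, a subunit of the superoxide-making oxidase, had 18.6, 22.9 and 18.3 TPM in T2, against 88, 74.9 and 69.9 TPM in T1. These 3 genes were lower in all T2 libraries, with log2 changes of -0.83 ± 0.06, -1.17 ± 0.08 and -1.91 ± 0.15 SE (adjusted p = 2.81e-06, 1.22e-06 and 3.34e-06). Ngp, a protein of late granules, had 12.9, 345 and 6.6 TPM in T2, against 27, 96.2 and 8.17 TPM in T1, highest in replicate 2 of both groups (adjusted p = 0.967). Camp and Ltf, of the same late granules, did not pass either.

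**Figure D4:**
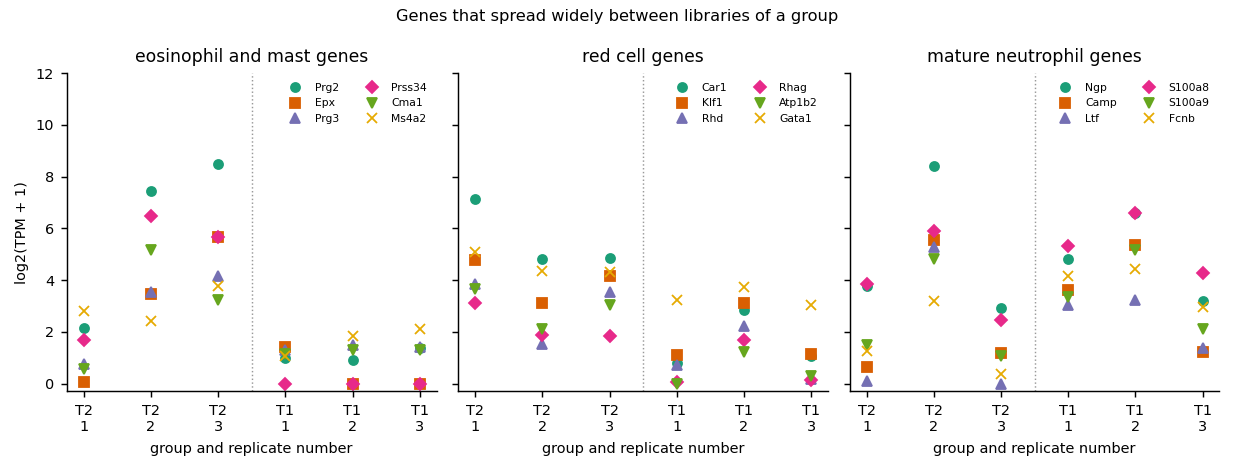
Points show log2(TPM + 1) of 18 genes in 3 T2 libraries (left of the dotted line) and 3 T1 libraries (right), in panels for eosinophil and mast cell, red cell and mature neutrophil genes. Prg2 lies at 3.49 TPM in T2 replicate 1 and at 172 and 362 TPM in T2 replicates 2 and 3, Car1 is highest in T2 replicate 1, and Ngp is highest in replicate 2 of both groups.

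Within groups, 50 of the 9020 genes with a mean of at least 5 TPM had an SD above 1 on the log2 scale among T2 libraries, against 21 among T1 libraries. The median SD was 0.216 in T2 and 0.161 in T1.

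Monocyte and macrophage genes were lower in T2 in most cases. Of 52 tested, 6 were higher in T2 (11.5%), 32 were lower (61.5%) and 14 did not pass, with a median log2 change of -1.02. Irf8, a factor of monocyte and dendritic cell fate, had 61.9, 57.7 and 46.2 TPM in T2, against 231, 233 and 241 TPM in T1. Csf1r, the receptor for the macrophage growth factor, had 10.4, 2.82 and 9.86 TPM in T2, against 50.2, 53.8 and 57.2 TPM in T1. F13a1, a coagulation factor chain of monocytes, had 30.8, 35.8 and 27.4 TPM in T2, against 159, 215 and 209 TPM in T1. No T2 library of Irf8, Csf1r or F13a1 reached a T1 library, with log2 changes of -2.08 ± 0.11, -2.81 ± 0.34 and -2.59 ± 0.14 SE (adjusted p = 1.95e-07, 0.000223 and 1.95e-07). Ctss, the lysosomal protease cathepsin S, had 23.4, 19.9 and 22.9 TPM in T2, against 124, 107 and 84.2 TPM in T1. Lgals3, galectin 3, had 4.14, 4.08 and 6.43 TPM in T2, against 56.6, 38.2 and 55.4 TPM in T1. Ccr2, the chemokine receptor of monocytes, had 9.97, 6.55 and 9.73 TPM in T2, against 40.8, 44.4 and 37.8 TPM in T1. All 3 were lower in every T2 library, with log2 changes of -2.19 ± 0.16, -3.12 ± 0.22 and -2.12 ± 0.19 SE (adjusted p = 1.49e-06, 1.49e-06 and 1.24e-05). Adgre1, the macrophage antigen F4/80, had 2.06, 5.9 and 2.95 TPM in T2, against 12.8, 13.3 and 10.3 TPM in T1, a log2 change of -1.58 ± 0.30 SE (adjusted p = 0.00359). The complement genes C1qb and C1qc, made by macrophages, went the other way. C1qb had 29.4, 27.1 and 39.5 TPM in T2, against 12.7, 8.89 and 6.74 TPM in T1. C1qc had 32.9, 39.5 and 28.5 TPM in T2, against 11.4, 14.5 and 5.17 TPM in T1. These genes had log2 changes of 1.68 ± 0.23 and 1.70 ± 0.29 SE (adjusted p = 0.000412 and 0.00186).

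Of 35 dendritic cell genes tested, 3 were higher in T2 (8.57%), 13 were lower (37.1%) and 19 did not pass, with a median log2 change of -0.50 (-0.23 without T1 replicate 1, -0.22 without T1 replicate 2 and -0.26 without T1 replicate 3). The lower genes included Cd209a, Pld4 and Irf8. Cd209a was near 0 in T2, so without a T1 library it no longer passed the filter. The medians without a T1 library thus leave out Cd209a and any gene like it. Ly6d, an antigen of lymphoid and dendritic progenitors, had 12.2, 11.2 and 9.16 TPM in T2, against 86.8, 69.3 and 86.3 TPM in T1. Id2, an inhibitor of E proteins, had 16.7, 20.4 and 21.2 TPM in T2, against 48, 28.4 and 50.1 TPM in T1. Both were below T1 in every T2 library, with log2 changes of -2.79 ± 0.17 and -1.04 ± 0.21 SE (adjusted p = 3.65e-07 and 0.00588). The call on Id2 was lost without trended and robust options (adjusted p = 0.0536). Of 26 genes of MHC class II and antigen presentation, 2 were higher in T2 (7.69%), 4 were lower (15.4%) and 20 did not pass, with a median log2 change of -0.02 (-0.12 after rescaling, -0.07 to 0.01 with 1 library left out), and 4 were higher without T2 replicate 1. Among all genes 8.39% were higher and 5.96% lower. H2-Q7, a class I gene of a family of similar copies, had 96.3, 117 and 106 TPM in T2, against 64.8, 64.4 and 52.3 TPM in T1, a log2 change of 0.81 ± 0.12 SE (adjusted p = 0.000917). The call on H2-Q7 was lost in the fit over all 30 libraries (adjusted p = 0.155). B2m, the light chain of class I, had 3829, 3579 and 3361 TPM in T2, against 3958, 3744 and 3958 TPM in T1 and overlapped (adjusted p = 0.14).

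B lineage genes were lower in T2 in most cases. Of 30 tested, 2 were higher in T2 (6.67%), 21 were lower (70%) and 7 did not pass, with a median log2 change of -1.97. Ebf1, the factor that specifies B cells, had 3, 2.77 and 2.45 TPM in T2, against 14.2, 16.7 and 24.4 TPM in T1. Cd79a, a chain of the B cell receptor complex, had 21, 12.2 and 10.3 TPM in T2, against 133, 119 and 157 TPM in T1. Vpreb1, a part of the surrogate light chain, had 35.4, 20.5 and 29.2 TPM in T2, against 193, 161 and 268 TPM in T1. Every T2 library of Ebf1, Cd79a and Vpreb1 was below every T1 library, with log2 changes of -2.35 ± 0.24, -3.20 ± 0.22 and -2.83 ± 0.20 SE (adjusted p = 4.11e-05, 1.04e-06 and 1.79e-06). Igll1, another part of the surrogate light chain, had a log2 change of -2.58 ± 0.20 SE (adjusted p = 8.5e-06). Pax5, the commitment factor, had 0.432, 1.09 and 0.0873 TPM in T2, against 2.34, 16 and 5.53 TPM in T1, a log2 change of -2.28 ± 0.50 SE (adjusted p = 0.0089), and T1 replicate 2 was highest. The call on Pax5 was lost with no filter on low values (adjusted p = 0.0752) and without trended and robust options (adjusted p = 0.0719). Cd72, a B cell surface receptor, was 1 of the 2 higher genes. Cd72 had 111, 116 and 117 TPM in T2, against 49.6, 51.5 and 46.9 TPM in T1, a log2 change of 1.20 ± 0.11 SE (adjusted p = 9e-06).

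Lymphoid priming genes were mixed. Of 45 tested, 10 were higher in T2 (22.2%), 14 were lower (31.1%) and 21 did not pass, with a median log2 change of 0.01 (-0.09 after rescaling, -0.05 to 0.10 with 1 library left out), and 9 were lower without any 1 of the T1 libraries. Dntt, the template-free DNA polymerase of early lymphoid cells, had 53.4, 37 and 44.6 TPM in T2, against 191, 155 and 170.2 TPM in T1. Lsp1, a cytoskeletal protein of leukocytes, had 202, 193 and 194 TPM in T2, against 461, 385 and 409.9 TPM in T1. Both were lower in every T2 library, with log2 changes of -1.92 ± 0.14 and -1.09 ± 0.08 SE (adjusted p = 1.49e-06 and 1.8e-06). Adgrl4, an adhesion receptor, had 178, 240.1 and 264 TPM in T2, against 74.9, 95.8 and 103 TPM in T1. Hmgb3, a chromatin protein of progenitors, had 534, 499 and 476 TPM in T2, against 328, 326 and 331 TPM in T1. They were higher in every T2 library, with log2 changes of 1.30 ± 0.15 and 0.61 ± 0.07 SE (adjusted p = 9.77e-05 and 5.8e-05). Of 35 tested for T, NK and innate lymphoid lines, 2 were higher in T2 (5.71%), 12 were lower (34.3%) and 21 did not pass, with a median log2 change of -0.68. Tcf7, the factor TCF-1, had 4.15, 16.6 and 8.82 TPM in T2, against 39.3, 30.1 and 28.4 TPM in T1, a log2 change of -1.79 ± 0.35 SE (adjusted p = 0.00494). The call on Tcf7 was lost with no filter on low values (adjusted p = 0.0573) and without trended and robust options (adjusted p = 0.0603). Ccl5, a chemokine of T and NK cells, had 6.43, 10.8 and 14.5 TPM in T2, against 52.5, 32.9 and 28.8 TPM in T1, a log2 change of -1.77 ± 0.28 SE (adjusted p = 0.00108). Gata3, a T cell factor that early progenitors also express, had 30.3, 29.6 and 30.3 TPM in T2, against 40.1, 40.2 and 30.5 TPM in T1. It did not pass (adjusted p = 0.268), though the groups did not overlap.

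Of 30 E proteins, Id and bHLH factors tested, 3 were higher in T2 (10%), 4 were lower (13.3%) and 23 did not pass, with a median log2 change of -0.10 (-0.19 after rescaling, -0.14 to -0.01 with 1 library left out). These shares compare with 8.39% higher and 5.96% lower over all genes. Id1, which blocks E proteins from DNA, had 12.7, 15.4 and 8.22 TPM in T2, against 29.998, 30.9 and 38.1 TPM in T1. Id3, with the same action, had 5.45, 6.95 and 5.73 TPM in T2, against 27.9, 26.3 and 28.7 TPM in T1. Both were lower in every T2 library, with log2 changes of -1.41 ± 0.22 and -2.03 ± 0.19 SE (adjusted p = 0.00104 and 1.45e-05). Tal1, a bHLH factor of stem cells, had 14.6, 18.9 and 18.2 TPM in T2, against 9.37, 8.53 and 7.67 TPM in T1, a log2 change of 0.93 ± 0.20 SE (adjusted p = 0.00753). Myc, a regulator of growth, had 669, 781 and 732 TPM in T2, against 531, 522 and 557 TPM in T1, a log2 change of 0.43 ± 0.07 SE (adjusted p = 0.000988). The call on Myc was lost without trended and robust options (adjusted p = 0.071). Of 56 myeloid and Ikaros family factors, 2 were higher in T2 (3.57%), 14 were lower (25%) and 40 did not pass, with a median log2 change of -0.05 (-0.13 after rescaling, -0.10 to 0.02 with 1 library left out). The lower count was 7 without T1 replicate 1, 8 without T1 replicate 2 or T2 replicate 2, and 9 without T1 replicate 3. Klf13, a zinc finger factor, had 70.3, 41.7 and 49.6 TPM in T2, against 113, 116 and 103 TPM in T1. Rarg, a retinoic acid receptor, had 5.19, 3.62 and 2.21 TPM in T2, against 14.7, 18.2 and 13.4 TPM in T1. Stat3, a factor activated by cytokines, had 98, 111 and 146 TPM in T2, against 63.4, 67.7 and 81 TPM in T1. Klf13 and Rarg were lower and Stat3 was higher, with log2 changes of -1.06 ± 0.16, -1.86 ± 0.27 and 0.72 ± 0.15 SE (adjusted p = 0.000905, 0.000563 and 0.0061). The call on Stat3 was lost with no filter on low values (adjusted p = 0.053) and without trended and robust options (adjusted p = 0.0708).

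Immediate early genes, which respond within minutes to stimulation and to handling of cells, were lower in T2 in many cases. Of 38 tested, 2 were higher in T2 (5.26%), 16 were lower (42.1%) and 20 did not pass, with a median log2 change of -0.38, and 10 were lower without T1 replicate 1 or without T1 replicate 3. Fos, a subunit of AP-1, had 1552, 1828 and 1778 TPM in T2, against 3381, 3345 and 3282 TPM in T1. Nr4a1, a nuclear receptor, had 476, 478 and 527 TPM in T2, against 866, 826 and 833 TPM in T1. Atf3, a stress factor, had 23.4, 15.3 and 15.5 TPM in T2, against 75.1, 54.8 and 52.8 TPM in T1. T2 libraries of Fos, Nr4a1 and Atf3 lay below all T1 libraries, with log2 changes of -0.96 ± 0.06, -0.77 ± 0.06 and -1.71 ± 0.20 SE (adjusted p = 3.92e-07, 3.9e-06 and 9.77e-05). Ier2 had 1132, 1278 and 1342 TPM in T2, against 1245, 1126 and 1248 TPM in T1 and overlapped (adjusted p = 0.685). The time that cells were kept before lysis is not in the labels and its part was not tested.

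Of 44 NF-kappa-B and inflammation genes, 1 was higher in T2 (2.27%), 12 were lower (27.3%) and 31 did not pass, with a median log2 change of -0.20 (-0.13 without T2 replicate 1, -0.38 without T2 replicate 3, -0.12 without T1 replicate 1, -0.12 without T1 replicate 2 and -0.10 without T1 replicate 3), and 7 were lower without any 1 of the T1 libraries. The filter was applied again with a library left out, so the members behind these medians and counts may differ. Nfkbia, an inhibitor of NF-kappa-B that NF-kappa-B itself induces, had 193, 184 and 179.6 TPM in T2, against 329, 312 and 313 TPM in T1. Irak3, a brake on Toll-like receptor signals, had 56.1, 55.3 and 51.1 TPM in T2, against 29, 28.4 and 30.3 TPM in T1. Nfkbia was lower and Irak3 higher in every T2 library, with log2 changes of -0.77 ± 0.07 and 0.87 ± 0.13 SE (adjusted p = 1.67e-05 and 0.000827). Of 57 interferon response genes, 3 were higher in T2 (5.26%), 7 were lower (12.3%) and 47 did not pass, with a median log2 change of -0.04 (-0.13 after rescaling, -0.06 to 0.03 with 1 library left out), and 4 were lower without any 1 of the T1 libraries. Without T2 replicate 1 there were 9 higher, and without T1 replicate 1 or T1 replicate 2 there was 1. The background over all genes was 8.39% higher and 5.96% lower. Ifi27l2a, an interferon-induced gene, had 11.2, 10.1 and 8.06 TPM in T2, against 88.9, 94.8 and 75.8 TPM in T1, a log2 change of -3.02 ± 0.17 SE (adjusted p = 1.98e-07). Ifitm6, a relative of Ifitm3, had 2.49, 2.74 and 1.48 TPM in T2, against 31.4, 30.3 and 18.3 TPM in T1, a log2 change of -3.08 ± 0.27 SE (adjusted p = 7.89e-06).

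Of 60 cytokine and chemokine receptors tested, 8 were higher in T2 (13.3%), 13 were lower (21.7%) and 39 did not pass, with a median log2 change of -0.03 (-0.13 after rescaling, -0.08 to 0.03 with 1 library left out), and 7 were lower without T1 replicate 1 or without T1 replicate 2. Il6ra, the interleukin 6 receptor chain, had 38.8, 37.7 and 31 TPM in T2, against 108, 111 and 113 TPM in T1. Il10ra, the interleukin 10 receptor chain, had 2.11, 4.01 and 5.78 TPM in T2, against 15.1, 14 and 20.7 TPM in T1. Il11ra1, the interleukin 11 receptor chain, had 167, 170.3 and 183 TPM in T2, against 120.2, 109 and 92.1 TPM in T1. Il6ra and Il10ra were lower and Il11ra1 higher in every T2 library, with log2 changes of -1.60 ± 0.12, -1.88 ± 0.29 and 0.70 ± 0.11 SE (adjusted p = 2.57e-06, 0.000959 and 0.00091). The call on Il11ra1 was lost in the fit over all 30 libraries (adjusted p = 0.0735). Of 29 S100, annexin and galectin genes, 2 were higher in T2 (6.9%), 11 were lower (37.9%) and 16 did not pass, with a median log2 change of -0.25. Lgals1, galectin 1, had 199, 149 and 122 TPM in T2, against 799, 810.02 and 781 TPM in T1. S100a6, a calcium-binding protein, had 31.9, 15.2 and 24.6 TPM in T2, against 56.4, 64.8 and 60.2 TPM in T1. S100a1, of the same family, had 136, 148 and 123 TPM in T2, against 71, 89.2 and 85.5 TPM in T1. Lgals1 and S100a6 were lower and S100a1 higher, with log2 changes of -2.37 ± 0.14, -1.36 ± 0.22 and 0.72 ± 0.12 SE (adjusted p = 1.04e-06, 0.00114 and 0.00116).

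Of 46 adhesion and niche genes tested, 18 were higher in T2 (39.1%), 6 were lower (13%) and 22 did not pass, with a median log2 change of 0.28 (0.18 after rescaling, 0.43 without T2 replicate 1). Adgrg1, the receptor GPR56 of stem and progenitor cells, had 1026, 1286 and 1360.1 TPM in T2, against 751, 812 and 785 TPM in T1. Tie1, a receptor of endothelial cells and of early progenitors, had 31.3, 51.3 and 40.7 TPM in T2, against 12.1, 19.7 and 16.1 TPM in T1. Emcn, endomucin, had 28.9, 19 and 28.9 TPM in T2, against 5.99, 6.56 and 4.74 TPM in T1. All T2 libraries were above all T1 libraries, with log2 changes of 0.63 ± 0.09, 1.31 ± 0.22 and 1.96 ± 0.22 SE (adjusted p = 0.000391, 0.00149 and 9.32e-05). The tetraspanins Cd81 and Tspan13 had log2 changes of 0.53 ± 0.06 and 0.52 ± 0.06 SE (adjusted p = 5.2e-05 and 9.37e-05). Emb, embigin, had 291, 313 and 283 TPM in T2, against 653, 626 and 627 TPM in T1, a log2 change of -1.10 ± 0.07 SE (adjusted p = 3.63e-07). Of 24 imprinted genes, 4 were higher in T2 (16.7%), 0 were lower (0%) and 20 did not pass, with a median log2 change of 0.21 (0.12 after rescaling), and 2 were higher without T2 replicate 2 or without T1 replicate 1. Gatm, an enzyme of creatine synthesis, had 162, 172 and 178 TPM in T2, against 73.7, 62.8 and 41.8 TPM in T1, a log2 change of 1.54 ± 0.17 SE (adjusted p = 5.31e-05).

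Of 69 proliferation genes tested, 2 were higher in T2 (2.9%), 13 were lower (18.8%) and 54 did not pass, with a median log2 change of -0.19 (-0.29 after rescaling). Lower genes numbered 20 with rescaling, 5 without T1 replicate 1 and 8 without T2 replicate 3 or without T1 replicate 3, and 5 were higher without T2 replicate 1. Ccnd3, cyclin D3, had 321, 319.8 and 313 TPM in T2, against 529, 491 and 488 TPM in T1. Rrm2, which makes DNA precursors, had 245, 259.7 and 293 TPM in T2, against 381, 383 and 407 TPM in T1. Both were lower in every T2 library, with log2 changes of -0.66 ± 0.06 and -0.56 ± 0.08 SE (adjusted p = 2.48e-05 and 0.000524). Mcm6, of the replication helicase, had 538, 713 and 663 TPM in T2, against 631, 637 and 678 TPM in T1 and overlapped (adjusted p = 0.845). Of 37 survival and p53 genes, 2 were higher in T2 (5.41%), 6 were lower (16.2%) and 29 did not pass, with a median log2 change of 0.04 (-0.06 after rescaling, -0.05 to 0.09 with 1 library left out). Among all genes 8.39% were higher and 5.96% lower. Of the survival and p53 genes 0 were higher with rescaling, without T2 replicate 2 or without T1 replicate 3. Pmaip1, which encodes the death protein Noxa, had 13.4, 15.3 and 17 TPM in T2, against 88.1, 74.7 and 88.4 TPM in T1. Bcl2, which protects from death, had 43.4, 45.2 and 53 TPM in T2, against 81.7, 80.6 and 78.3 TPM in T1. Both lay below T1 in every T2 library, with log2 changes of -2.38 ± 0.15 and -0.76 ± 0.12 SE (adjusted p = 5.34e-07 and 0.00117).

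Genes of cytosolic ribosomal proteins were lower by a small amount. Of 81 tested, 0 were higher in T2 (0%), 49 were lower (60.5%) and 32 did not pass, with a median log2 change of -0.24 against 0.10 over all genes. The lower count was 59 with rescaling and 68 without T2 replicate 1. It was 31 without T2 replicate 2, T2 replicate 3, T1 replicate 1 or T1 replicate 2, and 32 without T1 replicate 3. Rpl10, of the large subunit, had 1493, 1587 and 1462 TPM in T2, against 2199.6, 2039 and 2067 TPM in T1, a log2 change of -0.47 ± 0.05 SE (adjusted p = 5.26e-05). Rps19, of the small subunit, had 6949, 5832 and 5728 TPM in T2, against 6458, 6749 and 6999 TPM in T1 and overlapped (adjusted p = 0.188). These genes have processed copies in the genome that may share their reads. Genes that build ribosomes and targets of Myc went the other way. Of 54 tested, 17 were higher in T2 (31.5%), 0 were lower (0%) and 37 did not pass, with a median log2 change of 0.22 (0.12 after rescaling). The higher count was 8 with rescaling and 10 without T2 replicate 2, T2 replicate 3, T1 replicate 1 or T1 replicate 2. Polr1b, a subunit of the polymerase of ribosomal RNA, had 62.2, 55.5 and 58.9 TPM in T2, against 25.7, 32.3 and 31.9 TPM in T1, a log2 change of 0.96 ± 0.14 SE (adjusted p = 0.000681). Wdr12, a ribosome assembly protein, had 169, 167 and 160.2 TPM in T2, against 100.3, 116 and 119 TPM in T1, a log2 change of 0.56 ± 0.09 SE (adjusted p = 0.00169).

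Of 64 metabolism genes tested, 12 were higher in T2 (18.8%), 5 were lower (7.81%) and 47 did not pass, with a median log2 change of 0.10 (-0.0026 after rescaling). With rescaling 8 were higher and 9 lower, and 9 were lower without T2 replicate 1. Hk1, a hexokinase, had 181, 189 and 227 TPM in T2, against 115, 118 and 128 TPM in T1. Abcg2, a transporter that stem cells carry, had 69.4, 69.9 and 82.8 TPM in T2, against 34.1, 38.1 and 33.6 TPM in T1. Sod1, superoxide dismutase, had 227, 178 and 186 TPM in T2, against 346, 341 and 293 TPM in T1. Hk1 and Abcg2 were higher and Sod1 lower in every T2 library, with log2 changes of 0.71 ± 0.10, 1.05 ± 0.13 and -0.73 ± 0.10 SE (adjusted p = 0.000527, 0.000178 and 0.000401). Of 38 chaperone genes, 7 were higher in T2 (18.4%), 2 were lower (5.26%) and 29 did not pass, with a median log2 change of 0.03 (-0.07 after rescaling, -0.01 to 0.03 with 1 library left out). With rescaling 2 were higher and 3 lower, and 5 were lower without T2 replicate 1. Hsp90ab1, a cytosolic chaperone, had 1161, 1219.7 and 1286 TPM in T2, against 1014, 981 and 960.1 TPM in T1, a log2 change of 0.31 ± 0.06 SE (adjusted p = 0.00245). The call on Hsp90ab1 was lost without trended and robust options (adjusted p = 0.127). Of 56 chromatin regulators, 1 was higher in T2 (1.79%), 3 were lower (5.36%) and 52 did not pass, with a median log2 change of 0.04 (-0.05 after rescaling, -0.02 to 0.05 with 1 library left out). The shares over all genes were 8.39% higher and 5.96% lower. Dnmt3b, a DNA methyltransferase, had 34.3, 45.3 and 40.9 TPM in T2, against 20.1, 23.1 and 21.1 TPM in T1, a log2 change of 0.87 ± 0.16 SE (adjusted p = 0.0031). Hmgb2, a DNA-bending protein, had 323, 282 and 275 TPM in T2, against 488, 442 and 467 TPM in T1, a log2 change of -0.67 ± 0.08 SE (adjusted p = 0.000111).

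Of the Y-linked genes 1 was called lower in T2. Eif2s3y, Ddx3y, Kdm5d and Uty summed to 33.8, 38.4 and 58.5 TPM in T2, against 64.2, 76.6 and 78.9 TPM in T1, without overlap. Eif2s3y, a translation factor gene, had 20.7, 25.9 and 43.8 TPM in T2, against 45.7, 58.4 and 54.5 TPM in T1, a log2 change of -0.85 ± 0.23 SE (adjusted p = 0.0246). Its call was lost without T2 replicate 1 (adjusted p = 0.0509), without T2 replicate 2 (adjusted p = 0.0914), without T1 replicate 2 (adjusted p = 0.0922) and without T1 replicate 3 (adjusted p = 0.0728). It was also lost with no filter on low values (adjusted p = 0.121) and without trended and robust options (adjusted p = 0.12). Its X-linked partner Eif2s3x had 68.4, 85.6 and 107 TPM in T2, against 41, 60.1 and 57.5 TPM in T1, a log2 change of 0.70 ± 0.18 SE (adjusted p = 0.02), and that call was lost without T2 replicate 2 (adjusted p = 0.0651), without T2 replicate 3 (adjusted p = 0.0793) and without T1 replicate 1 (adjusted p = 0.0799). It was also lost with no filter on low values (adjusted p = 0.103) and without trended and robust options (adjusted p = 0.112). Xist, the RNA that silences an X chromosome in female cells, had 37.1, 40.5 and 33.4 TPM in T2, against 29.1, 32.7 and 28.2 TPM in T1. It did not pass (adjusted p = 0.216), though the groups did not overlap. All 6 libraries held both Xist and Y-linked RNA.

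The T2 minus T1 change of 3-month WTiMOS MPP3 was also set against that of 3 other tables of the series. The difference between the changes was tested, and each table kept its own spread. Against 3-month KOiMOS MPP3 it differed in 2523 of 11363 genes (22.2%). The change in 3-month WTiMOS MPP3 was the more positive in 14.6% and the more negative in 7.65%. Against 24-month WTiMOS MPP3 it differed in 1966 of 10796 genes (18.2%), more positive in 6.36% and more negative in 11.8%. Against 3-month WTiMOS MPP4 it differed in 7726 of 10781 genes (71.7%), more positive in 64.2% and more negative in 7.47%, and in 4434 genes with rescaling. These are signed differences and do not say which change was the greater in size. Within those tables T2 differed from T1 in 36.4% of genes in KOiMOS MPP3, 42% at 24 months and 81.3% in MPP4, where the median log2 change of all genes was -0.74. All 3 comparisons share the 6 libraries described here. Eif2s3y averaged 39.9 TPM in T2 and 0 TPM in T1 at 24 months, and 75.2 TPM in T2 and 0 TPM in T1 in MPP4. T2 and T1 differ there in Y-linked RNA, and its part in these differences was not tested.

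The change of Bcl11a was more positive than in KOiMOS MPP3 by 0.82 ± 0.13 SE (adjusted p = 0.000204), where Bcl11a averaged 68.2 TPM in T2 and 70.3 TPM in T1. Against 24 months the difference was -0.95 ± 0.21 SE (adjusted p = 0.00277), and Bcl11a averaged 39.1 TPM in T2 and 11.2 TPM in T1 there. Against MPP4 it was 0.07 ± 0.16 SE (adjusted p = 0.708), and Bcl11a averaged 65 TPM in T2 and 39.4 TPM in T1 in MPP4. None of the changes in this paragraph was rescaled. The median log2 change of all genes was 0.10 in 3-month WTiMOS MPP3 and -0.74 in MPP4. Equal or opposite changes of single genes in MPP4 are thus not relative to their table. Pld4 changed by -4.73 in 3-month WTiMOS MPP3, and by 0.36 in KOiMOS MPP3, -2.49 at 24 months and -1.96 in MPP4. It differed from all 3 (adjusted p = 4.89e-16, 3.74e-08 and 5.58e-12). Irf8 changed by -2.08, against 0.17 in KOiMOS MPP3, -0.02 at 24 months and -2.18 in MPP4. It differed from KOiMOS MPP3 and from 24 months (adjusted p = 1.31e-10 and 1.38e-06), while the difference from MPP4 was 0.11 ± 0.19 SE (adjusted p = 0.621). The change of Meis1 was 0.87, against -0.22 in KOiMOS MPP3, 1.42 at 24 months and -0.36 in MPP4. Ctse was higher in T2 of all 4 tables, by 3.45 in 3-month WTiMOS MPP3, 4.02 in KOiMOS MPP3, 2.07 at 24 months and 1.12 in MPP4. For Mpo the changes were 0.95 and 1.06 in WTiMOS and KOiMOS MPP3, a difference of -0.11 ± 0.07 SE (adjusted p = 0.234).

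**Figure D5:**
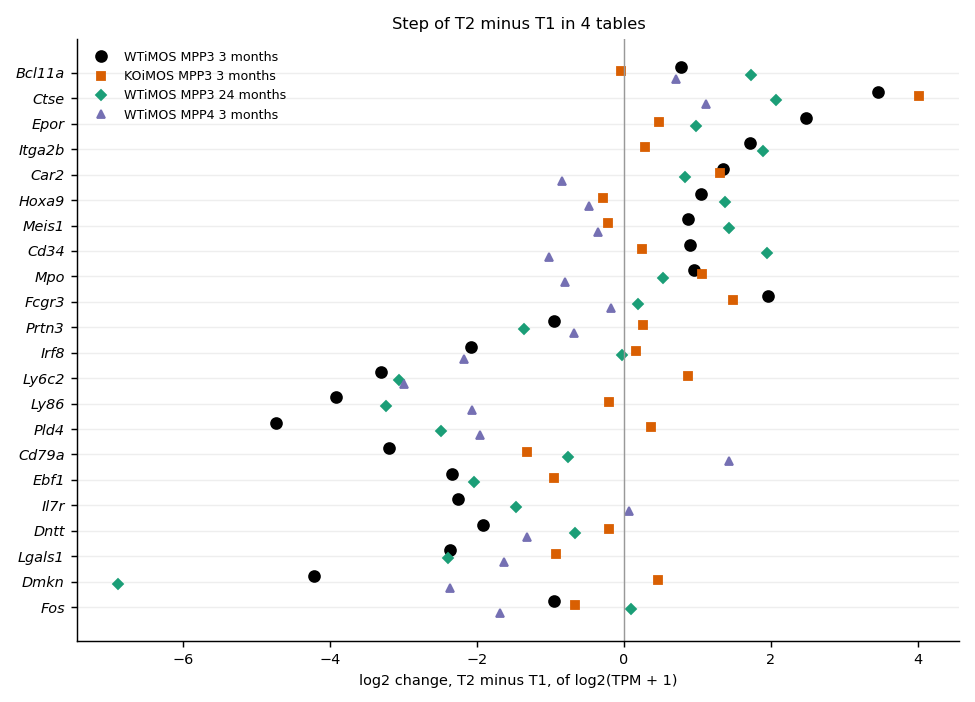
Log2 change, T2 minus T1, of single genes (horizontal axis, a row for each gene) in 3-month WTiMOS MPP3 (black circles), 3-month KOiMOS MPP3 (squares), 24-month WTiMOS MPP3 (diamonds) and 3-month WTiMOS MPP4 (triangles), with no symbol where a gene was not tested in a table. The circles of Pld4 and Irf8 lie at -4.73 and -2.08, and their KOiMOS squares at 0.36 and 0.17. Changes are not rescaled, and the median of all genes was -0.74 in MPP4.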

How the data were processed

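RNA of sorted MPP3 was amplified with a low-input kit, per the labels' protocols. The authors deposited TPM per gene, and each library sums to 1e+06. The submitters' processing notes name HISAT2, StringTie, featureCounts, DESeq2 and mm10 without versions or roles, so the tool behind the TPM is not known. Replicates were not pooled in the file used.

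Values were taken as log2(TPM + 1). A gene entered where at least 3 of the 6 libraries had at least 1 TPM. T2 was tested against T1 within this table in limma 3.58.1 under R 4.3.3, with trended and robust moderation and Benjamini-Hochberg adjustment at 0.05. Differences between tables were tested from the moderated errors of each table. The tests were tried on simulated data, whose outcome is not reported here. Those data gave T2 and T1 the same spread for each gene, whereas the real T2 libraries spread more. An earlier fit of all tables with a shared spread made too many false calls in simulated data, so each table was fitted alone. Alternatives were another pseudocount, other filters, rescaling, moderation, a shared spread, the replicate block and each library left out. With a library left out the filter was applied again to those left. Counts and list medians may then rest on a different set of genes.

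The members and the 34 gene lists were chosen with earlier results of these data known. Genes named are Bcl11a, Y-linked genes and Xist, the 15 higher and 15 lower of largest change (no overlap of libraries, and 5 TPM or more on average in whichever group was higher), up to 8 genes of smallest p and up to 3 abundant genes that did not pass in each list, cell type markers and 8 genes per difference. Ebf1 and the genes plotted by library or by table were chosen after their values were seen. A few genes that the rule names are not reported here. Of 24421 symbols, 24300 matched RefSeq.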

Additional observations from a re-analysis of the deposited data

Results flagged for a closer look

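The change between T2 and T1 departed from that of another table, by a test of the difference itself, in 2523 genes for 3-month KOiMOS MPP3, in 1966 genes for 24-month WTiMOS MPP3 and in 7726 genes for 3-month WTiMOS MPP4. For the 8 genes of smallest adjusted p in each comparison, the values below are the log2 change in 3-month WTiMOS MPP3 minus that in the other table. All passed, with adjusted p below 0.05.

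Against 3-month KOiMOS MPP3 the difference was -5.09 for Pld4, -4.68 for Dmkn, -2.99 for Tpm4, a tropomyosin, and -2.77 for Cpa3. It was -1.97 for Fcer1g, an Fc receptor chain, -1.56 for Asf1b, a histone chaperone, 4.35 for Paqr5, a membrane progestin receptor, and 1.13 for Ctla2a, a cysteine protease inhibitor. Cpa3 averaged 974 TPM in T2 and 247 TPM in T1 of KOiMOS MPP3, the opposite order to 135 ± 12.2 TPM in T2 and 235 ± 12.7 TPM in T1 of WTiMOS MPP3 (SD, n = 3 each).

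Against 24-month WTiMOS MPP3 the difference was -6.19 for Eif2s3y and -4.66 for Ddx3y, both Y-linked and both listed at 0 in T1 of that table. It was -4.82 for Ly6d, -2.68 for Ctss and -1.50 for H2afy, a variant histone. It was 2.90 for Cdk5rap1, 2.68 for Dmkn and 2.29 for Gstm1, a glutathione transferase. At 24 months Dmkn averaged 6.75 TPM in T2 and 919 TPM in T1.

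Against 3-month WTiMOS MPP4 the difference was 3.31 for Sae1 and 2.40 for Sumo3, both of the SUMO pathway, 3.16 for Snw1, 2.93 for Eef2, an elongation factor, and 2.86 for Hmgb3. It was 2.19 for Car2, 1.70 for Cnbp and -2.89 for Cd52, a surface glycoprotein of leukocytes. The median log2 change of all genes was 0.10 in MPP3 and -0.74 in MPP4.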

How the results depend on the processing

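None of the 1682 genes changed sign in a setting where it also passed. The count was 1056 with no filter on low values and 807 without limma's trended and robust options, which leaves its plain moderation. Higher genes numbered 552 with no filter, 552 with rescaling and 409 without those options, and lower genes 398 without them. Leaving out each library in turn gave 933 to 2197 genes, 512 to 1368 higher, 421 to 829 lower and 349 to 580 at 2-fold or more. Higher genes were 594 without T2 replicate 2 and 609 without T2 replicate 3, 512 without T1 replicate 1 and 561 without T1 replicate 2, and lower genes were 421, 432 and 456 without T1 replicates 1, 2 and 3. The difference from MPP4 held 4434 genes with rescaling. Its count ran from 7175 to 7783 with a library left out, that from KOiMOS MPP3 from 1704 to 2868 and that from 24-month MPP3 from 1495 to 2013. With the replicate number as a block 1830 genes passed, 1610 of them among the 1682. Deviations of same-numbered libraries over all genes correlated at 0.0197, 0.00943 and 0.0483, each under the 0.1 at which the numbers were to be taken as pairs. Whether same-numbered libraries share animals is not known, and Ngp, Camp, Ltf, S100a8 and S100a9 were highest in replicate 2 of both groups. A fit over all 30 libraries with a shared spread called 1562 genes, 1189 of them among the 1682. Of the settings chosen after seeing the data, leaving out X and Y linked genes gave 1631 genes and removing the trend with GC and length gave 1500, of which 684 were higher and 816 lower. Depth is unknown, so the precision of low genes rests on 3 libraries a group. Of the 230 named genes that passed, 66 were lost without the trended and robust options, 33 with a shared spread, 25 with no filter, 17 with rescaling and 24 without T1 replicate 1. List counts of 1 or 2 genes lost members or gained up to 3 with a library left out. With a library left out, the filter asked for at least 1 TPM in at least 3 of those left. Genes near 0 in 1 group could thus drop out untested when a library of the other group was removed. Cd209a, near 0 in T2, was such a gene where a T1 library was left out. How far this lowered the counts was not tested, nor was any other cause of these shifts.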
